A study of Mus musculus with 43 samples.

Results

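The genes described here encode voltage-gated and related ion channels, with their accessory subunits. They were chosen by name, as every gene of the expression table whose mouse symbol starts with Kcn, Scn, Cacn, Hcn, Trpc, Trpm or Trpv, which gave 92 of 10127 genes. Of the 170 annotated mouse genes with these prefixes, 50 lie in a stretch of identifiers that the table does not span, and they were not analysed here. The members fell into 17 roles. The largest were the alpha subunits of voltage-gated potassium channels (Kv alpha, 26 genes), inward rectifier potassium channels (Kir, 12), calcium- or sodium-activated potassium channels with their beta subunits (8), 2-pore potassium channels (K2P, 7) and the alpha subunits of voltage-gated sodium channels (Nav alpha, 7). A further 5 members share the prefix of a channel without being a subunit: the antisense RNA Kcnmb4os2, the opposite-strand gene Trpc5os, the regulator Kcnrg, the splicing factor Scnm1 and the ubiquitin ligase adaptor Trpc4ap.

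RNA came from 4 hypothalamic regions cut out by laser capture microdissection: the ventromedial hypothalamus (VMH), the paraventricular nucleus (PVN), the dorsomedial hypothalamus (DMH) and the arcuate nucleus (ARC). All donors were adult males of strain C57/BL6 with the allele B6(Cg)-Snord116tm1.1Uta/J, inherited from the father, so that every library, fed or fasted, carries the deletion and no genotypes are compared. One group of mice had free access to food and the other had been fasted for 24 hours. The 41 libraries, 1 per nucleus and mouse, came from 6 fasted and 6 fed mice: 4 fasted and 5 fed libraries of ARC, 5 and 6 of DMH, 5 and 5 of PVN, and 6 and 5 of VMH. Values are counts-per-million (CPM), the share of a library's reads that fell in a gene.

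Ion channels set how a neuron fires. Potassium channels hold or restore the resting voltage, sodium channels drive the upstroke of the action potential, calcium channels couple voltage to the release of transmitters and peptides, and TRP channels pass cations in response to receptors, temperature or chemical signals. In the hypothalamus they carry out the last step of nutrient and hormone sensing, for instance in the KATP channel closed by ATP or in TRPC5, which opens downstream of leptin and serotonin receptors. Glia use channels too, above all the inward rectifier KIR4.1 (Kcnj10), which takes up the potassium that active neurons release.

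Promoter sequences were found for 67 of the 92 members in a RefSeq table of the GRCm38.p6 assembly, as 93 windows from 250 bases before to 50 bases after a gene start. Those of 5 genes on which the results turn are shown: Cacna2d1 and Scn9a stood apart in VMH in opposite directions, Kcnmb4 lies across from an antisense gene that was also highest in PVN, and Kcnj10 and Kcna5 moved in opposite directions with fasting. Each is written 5′ to 3′ on the strand of its gene, with CpG dinucleotides in capitals.
Cacna2d1, chr5:15934441-15934740, plus strand: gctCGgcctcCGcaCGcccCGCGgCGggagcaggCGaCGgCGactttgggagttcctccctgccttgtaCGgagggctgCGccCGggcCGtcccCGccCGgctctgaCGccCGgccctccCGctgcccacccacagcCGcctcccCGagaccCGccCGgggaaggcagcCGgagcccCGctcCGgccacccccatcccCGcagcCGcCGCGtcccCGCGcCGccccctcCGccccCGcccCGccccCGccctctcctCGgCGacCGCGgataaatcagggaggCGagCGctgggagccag
Scn9a, chr2:66634913-66635212, minus strand: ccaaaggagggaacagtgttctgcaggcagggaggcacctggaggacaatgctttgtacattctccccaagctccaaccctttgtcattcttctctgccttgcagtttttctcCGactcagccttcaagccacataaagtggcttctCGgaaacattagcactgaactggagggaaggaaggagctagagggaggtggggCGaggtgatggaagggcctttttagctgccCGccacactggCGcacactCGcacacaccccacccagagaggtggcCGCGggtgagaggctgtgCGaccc
Kcnmb4, chr10:116473474-116473773, minus strand: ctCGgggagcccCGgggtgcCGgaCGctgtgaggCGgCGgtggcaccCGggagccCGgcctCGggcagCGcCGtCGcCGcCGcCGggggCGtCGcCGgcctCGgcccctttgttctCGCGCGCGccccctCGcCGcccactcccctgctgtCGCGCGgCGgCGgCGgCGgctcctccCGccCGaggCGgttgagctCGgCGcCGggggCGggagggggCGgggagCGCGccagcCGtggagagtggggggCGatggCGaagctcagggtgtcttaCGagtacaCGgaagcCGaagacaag
Kcnj10, chr1:172340960-172341259, plus strand: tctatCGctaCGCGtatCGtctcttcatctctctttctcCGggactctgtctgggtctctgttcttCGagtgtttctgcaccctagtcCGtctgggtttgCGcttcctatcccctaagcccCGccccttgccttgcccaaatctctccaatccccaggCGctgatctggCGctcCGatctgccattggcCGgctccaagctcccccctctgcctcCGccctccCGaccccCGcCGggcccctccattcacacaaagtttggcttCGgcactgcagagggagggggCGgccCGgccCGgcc
Kcna5, chr6:126535506-126535805, minus strand: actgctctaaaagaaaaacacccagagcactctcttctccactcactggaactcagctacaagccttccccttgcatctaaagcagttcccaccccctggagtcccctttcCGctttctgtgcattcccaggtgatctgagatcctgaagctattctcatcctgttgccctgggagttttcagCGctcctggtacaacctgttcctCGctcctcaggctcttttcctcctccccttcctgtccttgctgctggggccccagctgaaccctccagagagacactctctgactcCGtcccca
The windows of Kcnmb4 and Cacna2d1 hold 48 and 42 CpG dinucleotides, more than 98.8% and 97% of the 32851 mouse promoters in the table do. Kcnj10 holds 21, Scn9a 9 and Kcna5 4. The median was 9 over the members' windows (quartiles 5 and 21) and 7 over all promoters (quartiles 3 and 20). All 300 bases of the Kcnmb4 window lie inside the antisense gene Kcnmb4os2.

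Depth, read from the step that 1 read makes in the low values, ran from 1940000 to 8230000 reads per library with a median of 4100000, and between 0 and 8 members were at 0 in a library. Each nucleus carried its own marker genes. Npy, the 1 measured gene of 4 listed for ARC, was at 194 to 1226 CPM in ARC and at most 33.4 elsewhere. The lists for PVN (Avp and Crh, 2 of 4 measured), VMH (3 of 4) and DMH (2 of 4) summed to 426 to 1600, 235 to 336 and 199.8 to 338 CPM in their own nucleus and to at most 10.04, 44.9 and 106 elsewhere. The content of cell types differed between captures. The neuron list (2 of 8) summed to 672.5 to 868 CPM in VMH and 572 to 822 in DMH, but 436 to 550.1 in ARC and 463 to 544 in PVN. Its genes went apart in PVN: Syt1 had a log2 difference of -0.69 there (0.57 in VMH, 0.56 in DMH and -0.44 in ARC) and Tubb3 one of 0.53. The oligodendrocyte list (7 of 9) summed to 1129 to 1780 CPM in VMH and 455 to 1587 in DMH, but 246 to 780.3 in ARC and 352 to 627 in PVN. The vessel list (4 of 8) summed to 142 to 253 CPM in PVN and at most 129 elsewhere, and the ependyma and tanycyte list (2 of 5) to 22.3 to 67.8 CPM in ARC and at most 23.5 elsewhere. Hcrt and Pmch, peptides of the neighbouring lateral hypothalamus, summed to 203 to 799.9 CPM in DMH and at most 87.8 elsewhere. The part of these cells in the channel results was not tested. In captured tissue, fewer cells of a type and less RNA per cell cannot be told apart.

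Per kilobase of exon, the most abundant member over all libraries was Kcnj10, at 56.4 CPM per kb. It was followed by the sodium channel beta subunit gene Scn2b at 33.9, the gene of the Kv4 accessory protein Kcnip4 at 32.5, the calcium channel subunit gene Cacna2d1 at 31.7 and the sodium channel alpha subunit gene Scn2a at 29.4 CPM per kb. The calcium sensor Kcnip3 stood at 27.4, the cation channel Trpc5 at 27.0 and the beta subunit Scn3b at 22.6 CPM per kb. The order was not the same in each nucleus: in PVN Trpc5 and Kcnip4 had 46.0 and 45.2 CPM per kb against 43.8 for Kcnj10, and in VMH Cacna2d1 had 64.4 against 65.0. The 8 genes of highest mean level per length include no pore-forming Kv subunit. At the other end, Kcne1, an accessory subunit best known from heart and inner ear, was at 0.142 CPM per kb.

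The first question was how channel genes are distributed over the nuclei. Of the 92 members, 59 differed between nuclei at an adjusted p under 0.1 (limma, Benjamini-Hochberg over all genes tested), or 64.1%, where 43.2% of all 10121 genes tested did. The nucleus accounted for a median of 30.8% of a member's variance, against 14.8% over all genes. For the capture and library preparation batch the medians were 6.03% and 7.37%, and for the nutritional state 1.19% and 1.39%. For the mouse they were 24.6% and 30.5%. Each mouse belongs to 1 state and 1 batch, so these shares overlap. They were not adjusted for the number of levels of a factor. A factor of many levels, such as the 12 mice, takes a larger share even without an effect.
The VMH contrast held the most members, as it did genes overall. Against the mean of the other nuclei, 31 members were higher in VMH (33.7%, where 16.3% of all genes were) and 17 lower (18.5%, against 16.6%). In PVN, 14 were higher (15.2%, against 10.4%) and 26 lower (28.3%, against 11.6%). In ARC, 12 were higher (9.73% of all genes) and 22 lower (11.7%), and in DMH 9 were higher (8.19%) and 13 lower (6.76%). Differences of at least 1 on the log2 scale were found for 13 higher and 8 lower members in VMH (4.05% and 3.72% of all genes), 5 and 4 in PVN (3.03% and 3.38%), 7 and 8 in ARC (2.62% and 3.21%) and 2 and 4 in DMH (1.83% and 0.978%). The median log2 difference of the members was 0.17 in VMH, -0.15 in PVN, -0.05 in ARC and -0.02 in DMH, and that of all genes was -0.02, -0.01, -0.002 and 0.02. The contrasts share libraries, so a gene that is high in 1 nucleus tends to be low in the others.

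**Figure D1:**
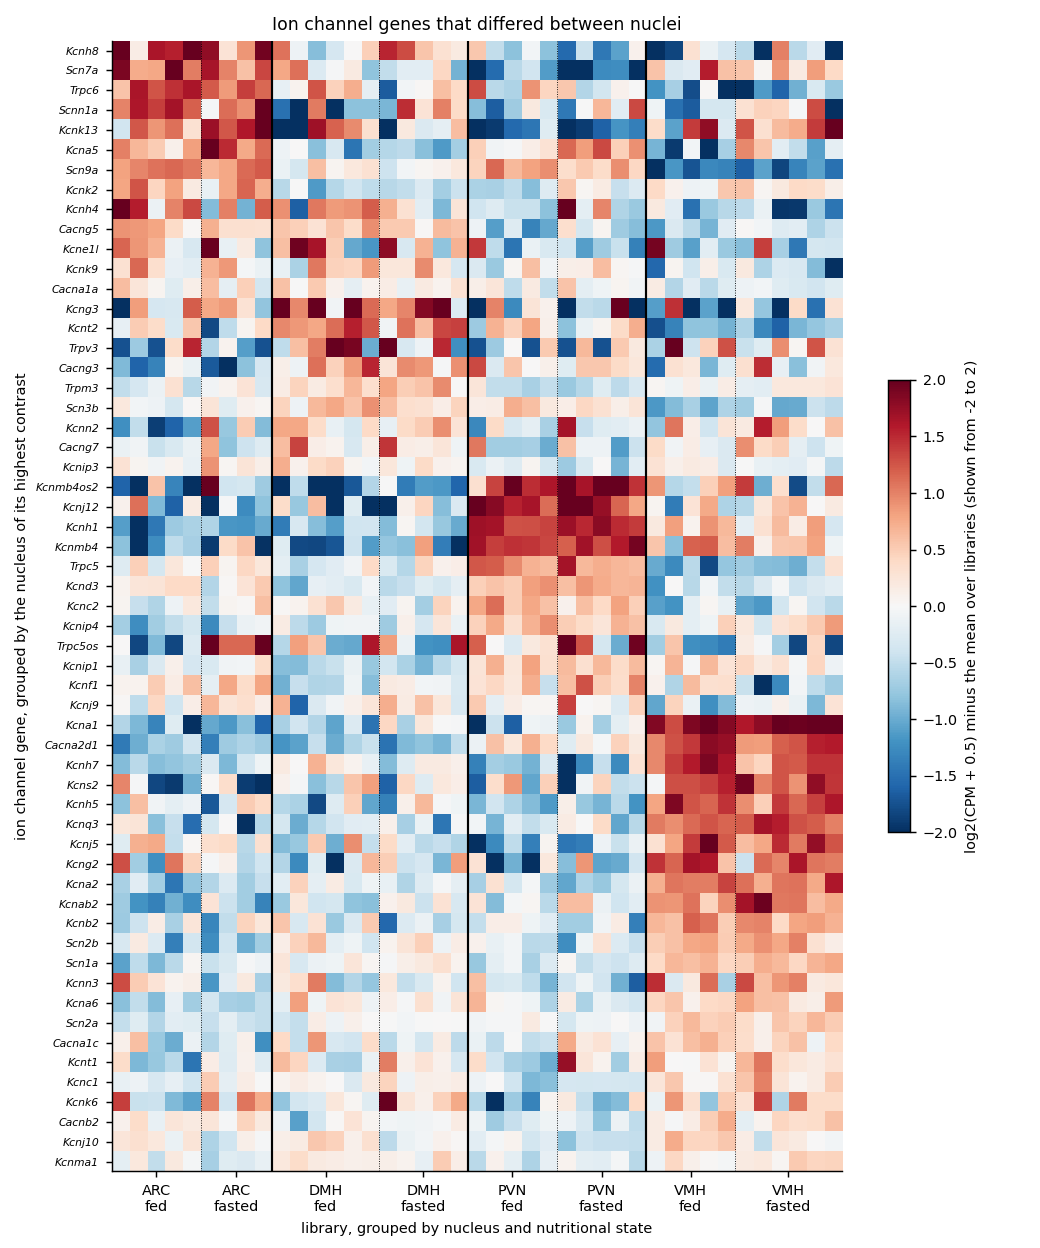
Each column is 1 of the 41 libraries and each line 1 of 57 of the 59 members that differed between nuclei, with colour for log2(CPM + 0.5) minus the mean over libraries, red high and blue low. The red block of the VMH columns starts with Kcna1, Cacna2d1 and Kcnh7, and that of the PVN columns holds Kcnmb4os2, Kcnj12, Kcnh1 and Kcnmb4.

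Of the 26 Kv alpha genes, 19 differed between nuclei (against 43.2% of all genes), and 12 were higher and 7 lower in VMH (against 16.3% and 16.6%). Kcna1 encodes KV1.1, a low-threshold channel of axons. Its lowest, median and highest VMH libraries had 86.8, 128 and 164 CPM, and the 30 libraries of the other nuclei lay between 5.16 and 46.8, so that the groups did not overlap. The mean was 129.9 ± 20.4 CPM in VMH (SD, n = 11), 28.1 ± 10.4 in DMH (n = 11), 25.4 ± 10.8 in PVN (n = 10) and 17.4 ± 6.40 in ARC (n = 9), and the log2 difference of VMH was 2.56 ± 0.18 (SE, limma, adjusted p = 1.18e-16). Kcna2, its partner in the same axonal channels, ranged over 112 to 210.3 CPM in VMH and 24.9 to 94.9 elsewhere, a log2 difference of 1.45 ± 0.11. Kcnq3, a subunit of the M-current, ranged over 46.6 to 77.2 CPM in VMH and 4.79 to 31.5 elsewhere, a log2 difference of 1.66 ± 0.17. Both were again without overlap. In all, 5 members had every VMH library above every other library, where 0.77% of all genes did: Kcna1, Kcna2, Kcnq3, Scn1a and Cacna2d1.

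Of the 6 measured genes of the ether-a-go-go group of potassium channels (EAG, ERG and ELK families), 5 differed between nuclei (against 43.2% of all genes), and the nucleus of the highest level was not the same for all. Kcnh2 (ERG1) did not pass the test (adjusted p = 0.342), with means of 33.4 to 41.1 CPM. Kcnh7 (ERG3) had 108, 210.3 and 295 CPM in the lowest, median and highest VMH library, and its 2 lowest VMH libraries overlapped DMH, whose highest library had 129. Its mean was 199.8 ± 55.8 CPM in VMH, 84.3 ± 20.9 in DMH, 53.7 ± 11.6 in ARC and 47.5 ± 22.6 in PVN, with a log2 difference of 1.78 ± 0.12 in VMH and -1.15 ± 0.13 in PVN (limma, adjusted p = 1.06e-16 and 5.89e-10). Kcnh5 (EAG2) was likewise highest in VMH, at 77.4 ± 20.4 CPM, and lowest in PVN, at 19.8 ± 6.16.
Kcnh1 (EAG1) was highest in PVN instead. Its lowest, median and highest PVN libraries had 126, 149 and 183 CPM, all above the highest of the others, a VMH library with 97.3. The means were 152 ± 20.3 CPM in PVN, 70.2 ± 20.1 in VMH, 33.9 ± 10.1 in DMH and 24.1 ± 9.53 in ARC, and the log2 difference was 2.04 ± 0.19 in PVN and -1.70 ± 0.20 in ARC (adjusted p = 3.37e-12 and 2.22e-09). Kcnh1 and Trpc5 were the members with every PVN library above all others, which held for 0.257% of all genes. Kcnh8 (KV12.1), of the ELK family, was a low gene with its highest level in ARC, 12.5 ± 6.30 CPM against 2.56 to 5.69 for the means of the other nuclei, and a log2 difference of 1.79 ± 0.37 (adjusted p = 0.000207). Its ARC libraries spanned 4.24 to 23.2 CPM and overlapped the other nuclei.

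Other Kv alpha subunits had patterns of their own. Kcna5 (KV1.5) was highest in ARC, at 38.2 ± 16.7 CPM, and PVN, at 28.3 ± 9.91, with 11.9 ± 3.59 in DMH and 14.6 ± 9.76 in VMH. It lies in a cluster on chromosome 6 (126532551 to 126740674) with Kcna1 and Kcna6, both of which were highest in VMH. Kcnd3 (KV4.3), an A-type channel that delays the next spike, was at 252 ± 27.4 CPM in PVN and had means of 121 to 180.2 elsewhere, a log2 difference of 0.87 ± 0.08 (adjusted p = 2.01e-12). Kcns2, a silent subunit that modifies KV2 channels, was at 12 ± 3.80 CPM in VMH, with means of 3.20 to 4.60 elsewhere (1.75 ± 0.33, adjusted p = 4.1e-05). Kcng3, another silent subunit, was highest in DMH. Its DMH libraries ran from 1.94 to 23.4 CPM around a median of 5.93 and overlapped the other nuclei, whose highest library had 11.1 (1.96 ± 0.44, adjusted p = 0.00142). Kcnb2 (KV2.2) was at 76.9 ± 13.4 CPM in VMH and had means of 36.6 to 39.1 elsewhere. Of the fast-spiking KV3 channels, Kcnc1 was highest in VMH and Kcnc2 in PVN, with log2 differences of 0.44 and 0.78.

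**Figure D2:**
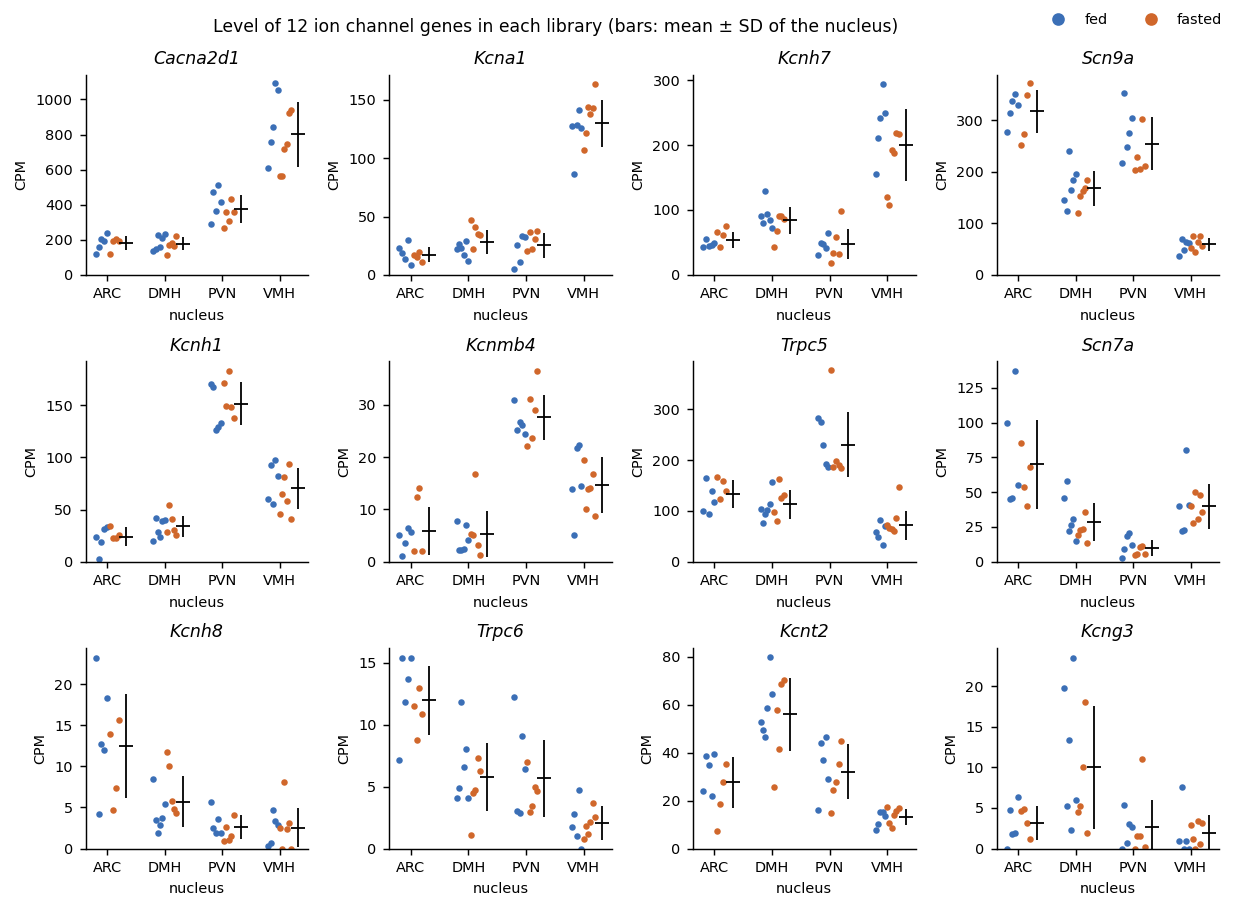
Level in CPM (vertical axis, from 0) of 12 members in each library, by nucleus, with fed libraries in blue, fasted libraries in orange and bars for the mean ± SD of the nucleus. VMH stands apart for Cacna2d1, Kcna1 and Scn9a and PVN for Kcnh1 and Trpc5, whereas the nuclei overlap for Kcnh8, Trpc6 and Kcng3.

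Of the 6 accessory subunits of Kv channels, 5 differed between nuclei, against 43.2% of all genes. Kcnip4 and Kcnip1, calcium-binding partners of the KV4 channels, were highest in PVN, at 164 ± 24.8 and 176 ± 26.1 CPM, as was Kcnd3. Kcnip4 shares exon sequence with genes on the other strand, and the kit did not mark strand. Kcnip3 was lowest in PVN, at 77.5 ± 15.1 CPM, with means of 91.5 to 111.1 elsewhere, and its difference between nuclei did not pass in the fed libraries alone (adjusted p = 0.131). Kcnab2, the beta subunit that binds KV1 channels, was highest in VMH, at 83.0 ± 29.0 CPM against means of 22.6 to 38.7, as were Kcna1 and Kcna2 (log2 difference 1.37 ± 0.13, adjusted p = 9.11e-13).

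Among calcium- and sodium-activated channels, 6 of 8 differed between nuclei, against 43.2% of all genes. Kcnmb4, the neuronal beta4 subunit of the large-conductance BK channel, had 22.1, 26.4 and 36.5 CPM in the lowest, median and highest PVN library. In VMH it had 5.01, 14.0 and 22.4 CPM and in ARC and DMH at most 14.1 and 16.9, so that 1 VMH library reached into the range of PVN. Its log2 difference in PVN was 2.00 ± 0.28 (limma, adjusted p = 2.63e-07). Kcnmb4os2 (chr10:116473163-116475319) is transcribed from the other strand across the Kcnmb4 start whose window is printed above. It had 2.99 to 91.7 CPM in PVN with a median of 8.16, and means of 0.724 to 3.05 elsewhere. The PVN difference was 2.69 ± 0.36 (adjusted p = 8.52e-08), and 2.49 without mouse Fast-86 (labels join state and number), whose PVN library gave the 91.7 CPM. Exons of both genes overlap, so their reads cannot be told apart there.
Kcnma1, the BK pore itself, had means of 85.7 to 116 CPM, with log2 differences of -0.29 in PVN and 0.29 in VMH. Kcnt2 (SLICK), a sodium-activated channel, had 25.7, 57.9 and 79.9 CPM in its lowest, median and highest DMH library and 7.56, 14.0 and 17.3 in VMH, which did not overlap. Its log2 difference was 1.36 ± 0.15 in DMH and -1.35 ± 0.15 in VMH (adjusted p = 7.51e-10 and 1.32e-10). Kcnn3 (SK3), a small-conductance channel of the after-hyperpolarization, was highest in VMH, at 42.9 ± 18.9 CPM, and lowest in PVN, at 20.1 ± 8.60, and the difference between nuclei did not pass in the fed libraries alone (adjusted p = 0.125).

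Of the 12 inward rectifiers, 4 differed between nuclei, where 43.2% of all genes did. Kcnj12 (KIR2.2), which holds the resting voltage, had 11.9, 23.0 and 38.2 CPM in the lowest, median and highest PVN library, and 1 ARC library with 15.1 reached into that range (2.2 ± 0.36 in PVN, limma, adjusted p = 5.74e-06). Kcnj5 (GIRK4), a subunit of channels opened by G proteins, was at 50.2 ± 18.7 CPM in VMH and 12.2 ± 6.85 in PVN, and these nuclei did not overlap (1.6 ± 0.24 and -1.47 ± 0.24, adjusted p = 2.92e-07 and 5.17e-06). Of the other GIRK genes, Kcnj6 had means of 22 to 31.8 CPM and did not pass the test (adjusted p = 0.172), and Kcnj9 was at -0.51 on the log2 scale in VMH. Kcnj10 was at 351 ± 77.8 CPM in VMH, 323 ± 63.6 in DMH, 302 ± 62.1 in ARC and 237 ± 41.7 in PVN, a log2 difference of 0.34 in VMH and -0.45 in PVN. Kcnj16 (KIR5.1), its partner in glial channels, had means of 66.9 to 84.0 CPM and did not pass the test (adjusted p = 0.214). The KATP pore genes were low, Kcnj11 with means of 1.77 to 3.20 CPM and Kcnj8, the form of vessel walls, with 3.26 to 4.55 CPM, and neither passed (adjusted p = 0.649 and 0.788).
Of the K2P channels, which carry leak current, 4 of 7 differed between nuclei, a share not far from the 43.2% of all genes. Kcnk2 (TREK1) was highest in ARC, at 96.4 ± 28.0 CPM, with means of 41.3 to 69.1 elsewhere. Kcnk13 (THIK1), known from microglia, was low, with 6.57 ± 3.73 CPM in ARC and 0.544 ± 0.527 in PVN. Its ARC difference of 1.51 (adjusted p = 0.000809) did not pass in the fed libraries alone (0.97, adjusted p = 0.299). The microglia list (4 of 6) had means between 49.8 and 54.1 CPM over the nuclei. Kcnk9 (TASK3) was lower in VMH by a log2 difference of -0.80, and its difference between nuclei did not pass in the fed libraries alone (adjusted p = 0.14).

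Of the 7 Nav alpha genes, 5 lie in a cluster on chromosome 2 (65457118 to 66784914), in the order Scn3a, Scn2a, Scn1a, Scn9a, Scn7a, and neighbours in it went in opposite directions. Scn9a (NaV1.7), best known from pain neurons, had 36.9, 62.6 and 75.3 CPM in the lowest, median and highest VMH library. Every library of the other nuclei had more, from 119 to 371 CPM, which was so for 0.237% of all genes. The means were 317 ± 41.4 CPM in ARC, 254 ± 51.8 in PVN, 167 ± 33.9 in DMH and 58.8 ± 12.7 in VMH, and the log2 difference was -2.01 ± 0.08 in VMH (limma, adjusted p = 4.89e-26). Of its variance, 92.6% followed the nucleus, the highest share of any member. The exons of Scn9a overlap those of the antisense gene Gm13629.
Scn1a (NaV1.1), the next gene of the cluster, was highest in VMH, at 177 ± 16.6 CPM with means of 89.1 to 123 elsewhere. Scn2a (NaV1.2) was highest there too, at 494 ± 70.6 CPM against 284 to 352. Scn3a (NaV1.3), at the far end, had means of 182 to 216 CPM and did not pass the test (adjusted p = 0.149).
Scn7a (NaX), a sodium sensor of glia and some neurons, had 40.3, 54.8 and 137 CPM in the lowest, median and highest ARC library and 2.45, 9.88 and 20.4 in PVN, without overlap between them. Its log2 difference was 1.62 ± 0.23 in ARC and -2.14 ± 0.22 in PVN (adjusted p = 3.23e-07 and 1.02e-10). The ependyma and tanycyte list was also highest in ARC, through Col23a1 (34.1 CPM, log2 difference 2.33), while its other measured gene, Foxj1, had 2.93 CPM in ARC and 3.72 in PVN and did not pass (0.15, adjusted p = 0.863).
The beta subunits, which set the trafficking and gating of the pore, went apart: Scn2b was highest in VMH (231 ± 40.8 CPM, others 100.8 to 163) and Scn3b lowest there (71.5 ± 17.9 CPM, others 116 to 163). Short reads from stretches that paralogs such as Scn1a, Scn2a, Scn3a and Scn9a share may have been split between them, and how they were counted is not given in the sources used here. Exons of Kcna6, Kcnj13, Kcnip4, Cacna1a and Trpc4ap also overlap measured genes on the other strand, so their values carry the same uncertainty as that of Kcnmb4.

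**Figure D3:**
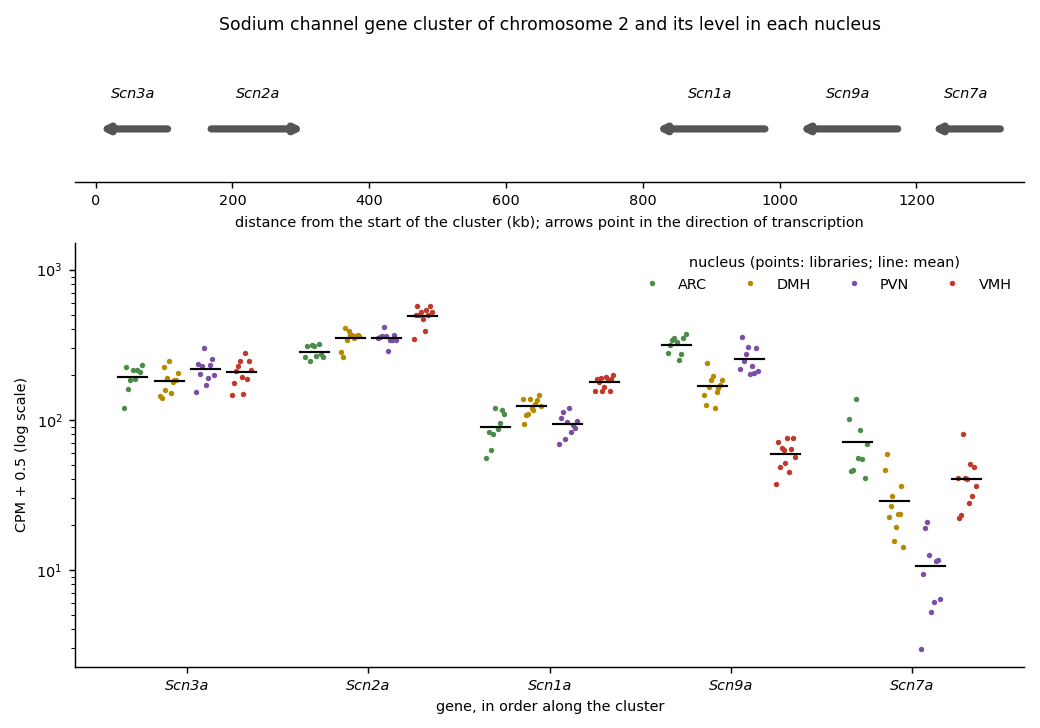
Above, the 5 sodium channel genes along their cluster as distance in kb from its start, with arrows in the direction of transcription; below, CPM + 0.5 on a log axis for each library (points) with the mean of each nucleus (line). Scn2a and Scn1a are highest in VMH (red), Scn9a is lowest there, and Scn7a is highest in ARC and lowest in PVN.

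Of the 9 calcium channel genes measured, Cacna2d1 had the smallest p of any member. It encodes alpha2delta-1, the subunit that brings calcium channels to release sites and binds gabapentin. Its lowest, median and highest VMH libraries had 562, 756 and 1093 CPM, and the highest library of the other nuclei, from PVN, had 511. The means were 800.1 ± 186 CPM in VMH, 377 ± 80.1 in PVN, 179.6 ± 40.1 in ARC and 178 ± 39.3 in DMH, and ARC and DMH differed by less than their spread. The log2 difference was 1.84 ± 0.06 in VMH (limma, adjusted p = 3.53e-30), -1.10 ± 0.06 in ARC and -1.06 ± 0.06 in DMH. Of the pores, Cacna1c (CaV1.2) had a VMH difference of 0.58 and Cacna1a (CaV2.1) one of -0.36. Cacnb2, a beta subunit, was highest in VMH, at 171 ± 32.6 CPM, and lowest in PVN, at 110.2 ± 19.2.
The gamma subunits, several of which are better known as partners of AMPA receptors, had patterns of their own. Cacng3 was lowest in ARC, at 7.08 ± 3.78 CPM, and highest in DMH, at 21.3 ± 7.83 (-1.29 and 0.91). Cacng5 was at 47.2 ± 10.1 and 46.1 ± 7.27 CPM in ARC and DMH and at 23.7 ± 9.24 and 24.5 ± 5.69 in PVN and VMH. Cacng7 was the member whose variance followed the batch most, with 55.9%.

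TRP channels were led by Trpc5, which had 184, 196 and 378 CPM in the lowest, median and highest PVN library, all above the highest of the others, 167 in ARC. Its means were 231 ± 63.8 CPM in PVN, 134 ± 27.4 in ARC, 113 ± 28.4 in DMH and 71.8 ± 29.0 in VMH, with a log2 difference of 1.17 ± 0.13 in PVN and -1.15 ± 0.12 in VMH (limma, adjusted p = 3.75e-10 and 1.36e-10). The highest PVN library was again that of mouse Fast-86. Trpc6 was highest in ARC at a low level, 12 ± 2.79 CPM against 2.04 ± 1.37 in VMH (1.55 ± 0.29 in ARC, adjusted p = 6.09e-05). Trpm3, opened by neurosteroids and heat, was at 132 ± 26.8 CPM in DMH and 72.0 ± 16.1 in PVN (0.62 ± 0.10 in DMH, adjusted p = 3.72e-06). Trpm4, a calcium-activated cation channel, had means of 3.11 to 5.80 CPM and Hcn4, a pacemaker channel, 6.87 to 11.3 CPM, and neither passed the test (adjusted p = 0.362 and 0.236). Scnn1a, a subunit of the epithelial sodium channel, was at 5.51 ± 2.43 CPM in ARC with means of 1.81 to 2.05 elsewhere (1.52 ± 0.36, adjusted p = 0.00129). That difference ran from 0.97 to 2.21 under the alternatives and passed in each.

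Genes for proteins that bind, tether or traffic channels were listed beside the members, 36 in all, of which 24 were tested. Of these, 22 differed between nuclei (43.2% of all genes did), and 12 were higher and 6 lower in VMH (against 16.3% and 16.6% of all genes). Ank3, the ankyrin that anchors sodium and KV7 channels at the axon initial segment, had a VMH difference of 0.69 on the log2 scale (adjusted p = 5.49e-14), and Dpp10, a partner of KV4 channels, one of 0.81. Cntnap2, which clusters KV1 channels along axons, was highest in PVN (0.79) and lower in VMH (-0.28), where Kcna1 and Kcna2 were highest. Abcc9, the sulfonylurea receptor of vascular KATP channels, had a PVN difference of 1.53 (adjusted p = 5.27e-08), and vessel markers were highest in PVN as well.

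The second question was how channel genes respond to a fast of 24 hours. Within a nucleus no member passed the threshold in any of the 4 tests (limma, adjusted p under 0.1), where 0.176% of all genes passed for ARC, 0.0103% for DMH, 0.0208% for VMH and 0.367% for PVN. At an unadjusted p under 0.05 stood 13 of 88 members in PVN (14.8%, against 9.97% of all genes), 10 of 87 in ARC (11.5%, against 8.1%), 10 of 87 in VMH (11.5%, against 6.98%) and 9 of 88 in DMH (10.2%, against 6.62%). The median log2 change of the members tested was 0.10 in PVN and VMH, 0.04 in ARC and -0.002 in DMH. That of all genes tested was 0.006 in PVN, -5.2e-05 in VMH, 0.016 in ARC and 0.012 in DMH. Nearest to the threshold was Kcnt1 in PVN, with a change of 0.78 ± 0.18 (adjusted p = 0.108).

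Averaged over the nuclei, 5 of 92 members passed the test, or 5.43%, where 3.18% of all genes passed. Kcnj10 fell (1.66% of all genes did), and Kcnt1, Kcna5, Kcnab2 and Kcnn2 rose (1.52%). At an unadjusted p under 0.05 were 17 members, 18.5% against 13.2% of all genes. This fit treated the libraries of a mouse as nearly independent, since their estimated correlation was -0.0032. With 1 value per mouse, an alternative added after seeing the data, no member passed and 0.0198% of all genes did, and the direction of the 5 was the same. In that fit the log2 change was -0.37 for Kcnj10, 0.39 for Kcnt1, 0.65 for Kcna5, 0.36 for Kcnab2 and 0.42 for Kcnn2. The 5 calls were thus lost in a fit that counts each mouse once. There the change of Kcnn2 was smaller, 0.42 against 0.62 in the fit over libraries. Those of Kcnj10, Kcnt1 and Kcnab2 were somewhat smaller too, and that of Kcna5 was not.

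Kcnj10, the glial KIR4.1, was lower in fasted mice in each nucleus. In DMH the fasted libraries had 205, 269, 285, 299.9 and 312.8 CPM and the fed libraries 317, 319.7, 333, 371, 409 and 431. In PVN they had 167, 213, 214, 216 and 221 CPM fasted and 229, 253, 255, 289 and 312 fed. Neither pair of groups overlapped, which held for 0.405% of all genes in DMH and 1.26% in PVN. In ARC the fasted libraries had 192, 225, 289.7 and 320.4 CPM and the fed 269, 341, 349, 355 and 371, where the lowest fed library, of mouse Fed-308, lay inside the fasted range. In VMH they had 211 to 351 CPM fasted with a median of 312 and 333, 399, 399.9, 429.9 and 498 fed, where the lowest fed library, of mouse Fed-111, lay inside the fasted range.
The log2 change was -0.42 ± 0.11 in VMH, -0.45 ± 0.11 in DMH, -0.41 ± 0.14 in ARC and -0.37 ± 0.11 in PVN, and -0.41 ± 0.06 averaged over nuclei (limma, adjusted p = 7.03e-06). Within batches, all 12 combinations of nucleus and batch were below 0, from -0.86 to -0.02. The nuclei of a batch come largely from the same mice, so these combinations are not independent. Averaged per mouse after centring each nucleus, the 6 fasted mice lay between -0.61 and -0.06 and the 6 fed mice between 0.01 and 0.40 on the log2 scale, where mice Fast-85 and Fed-92 had 1 library each among those analysed. The mice did not overlap, as was so for 0.474% of all genes, Kcnu1 among the other members. With 1 value per mouse the change was -0.37 ± 0.11 (adjusted p = 0.44). Without each mouse in turn the averaged change stayed between -0.47 and -0.33, nearest to 0 without mouse Fast-86, the mouse with the lowest value in every nucleus. Of the variance of Kcnj10, 32.6% followed the nutritional state, the highest share of any member. The mouse, which has 1 state, accounted for 58.3%, a share not adjusted for the number of mice.
Of 7 astrocyte markers listed, 2 were measured. Gja1 had a log2 change of -0.09 ± 0.09 (adjusted p = 0.74) and Aldh1l1 one of 0.30 ± 0.23 (0.626) in the averaged fit, and neither passed. Their summed level in fasted and fed libraries was 100 to 124 and 78.1 to 159 CPM in DMH, 76.8 to 164 and 75.8 to 143 in PVN, 77.5 to 124 and 69.2 to 95.7 in VMH, and 45.5 to 86.3 and 64.2 to 80.9 in ARC. Of the 4 vessel markers measured, Flt1 fell in the averaged fit (-0.33 ± 0.10, adjusted p = 0.073) and the others did not pass. The vessel list summed to 43.5 to 58.1 CPM in fasted and 62.9 to 78.0 in fed ARC libraries, without overlap, to 60.0 to 102 and 79.8 to 129 in DMH, and to 47.9 to 89.4 and 67.2 to 103 in VMH, and in PVN the fasted libraries reached higher. The choroid plexus list (2 of 3) had means of 39.95 CPM fasted and 21.06 fed in ARC and 19.9 and 9.66 in PVN. Its means were 29.65 and 27.79 in DMH and 10.38 and 12.35 in VMH. The microglia list had means of 43.5 CPM fasted and 54.7 fed in ARC and 43.8 and 59.0 in DMH. Its means were 46.0 and 56.9 in PVN and 53.9 and 54.5 in VMH. No gene of either list passed the averaged test. The part of vessels and of these cells in the fasting results was not tested. Kcnj16 had a change of -0.16 ± 0.12 and did not pass (adjusted p = 0.599).

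**Figure D4:**
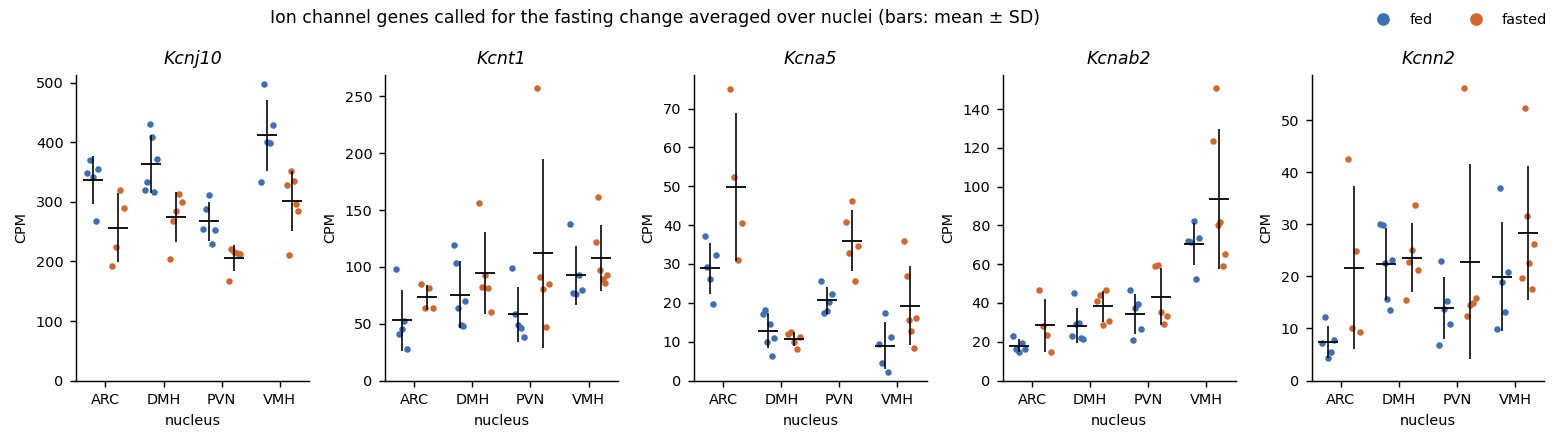
Level in CPM (vertical axis, from 0) of the 5 members that passed the averaged fasting test, by nucleus, with fed libraries in blue, fasted libraries in orange and bars for the mean ± SD. Kcnj10 is lower in fasted mice in each nucleus, without overlap in DMH and PVN, while 1 fasted PVN library stands far above the others for Kcnt1 and for Kcnn2.

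Kcnt1 (SLACK), a sodium-activated potassium channel, was higher in fasted mice by 0.47 ± 0.09 averaged over nuclei (limma, adjusted p = 0.00236, and 0.48 with 1 value per mouse). Its PVN libraries had 47.0, 80.5, 84.7, 91.0 and 258 CPM fasted and 38.5, 46.0, 48.6, 58.7 and 99.2 fed. The groups overlapped, and the highest library of each was of batch 1, from mouse Fast-86 and mouse Fed-111. Of its variance 46.5% followed the batch, and without the batch covariate its change was 0.47 (adjusted p = 0.422). Of the 12 combinations of nucleus and batch, which share mice, 11 were above 0.
Kcna5 (KV1.5) rose by 0.63 ± 0.15 (adjusted p = 0.0177, and 0.511 per mouse). In PVN it had 25.6, 32.9, 34.7, 40.8 and 46.1 CPM fasted and 17.3, 17.9, 20.1, 22.4 and 25.5 fed, without overlap, as was so for 1.26% of all genes. In ARC it had 31.0, 40.6, 52.4 and 75.1 CPM fasted and 19.7, 26.0, 29.1, 32.4 and 37.1 fed, which overlapped. In DMH the means, 10.8 ± 1.81 fasted (n = 5) and 12.8 ± 4.56 fed (n = 6), differed by less than their spread.
Kcnab2, the KV1 beta subunit, rose by 0.42 ± 0.11 (adjusted p = 0.0339, and 0.512 per mouse). Its highest libraries were the VMH libraries of the mice Fast-86 and Fast-85, at 151 and 123 CPM, where the fed VMH libraries had 52.5 to 82.5. Kcnn2 (SK2), a channel of the after-hyperpolarization, rose by 0.62 ± 0.19 (adjusted p = 0.0865, and 0.678 per mouse). Mouse Fast-86 gave its highest value in ARC, PVN and VMH, at 42.6, 56.1 and 52.4 CPM, and without that mouse the change was 0.37 (adjusted p = 0.393). Without the batch covariate these calls were lost too, at nearly the same log2 changes: 0.64 for Kcna5 (adjusted p = 0.283), 0.41 for Kcnab2 (0.457) and 0.60 for Kcnn2 (0.47). That of Kcnj10 was kept (0.00672). Leaving out single mice ended the call of Kcnn2 in 8 of 12 cases, that of Kcnab2 in 3 (mice Fast-100, Fed-111 and Fast-86) and that of Kcna5 in 1 (mouse Fed-308, adjusted p = 0.103).

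**Figure D5:**
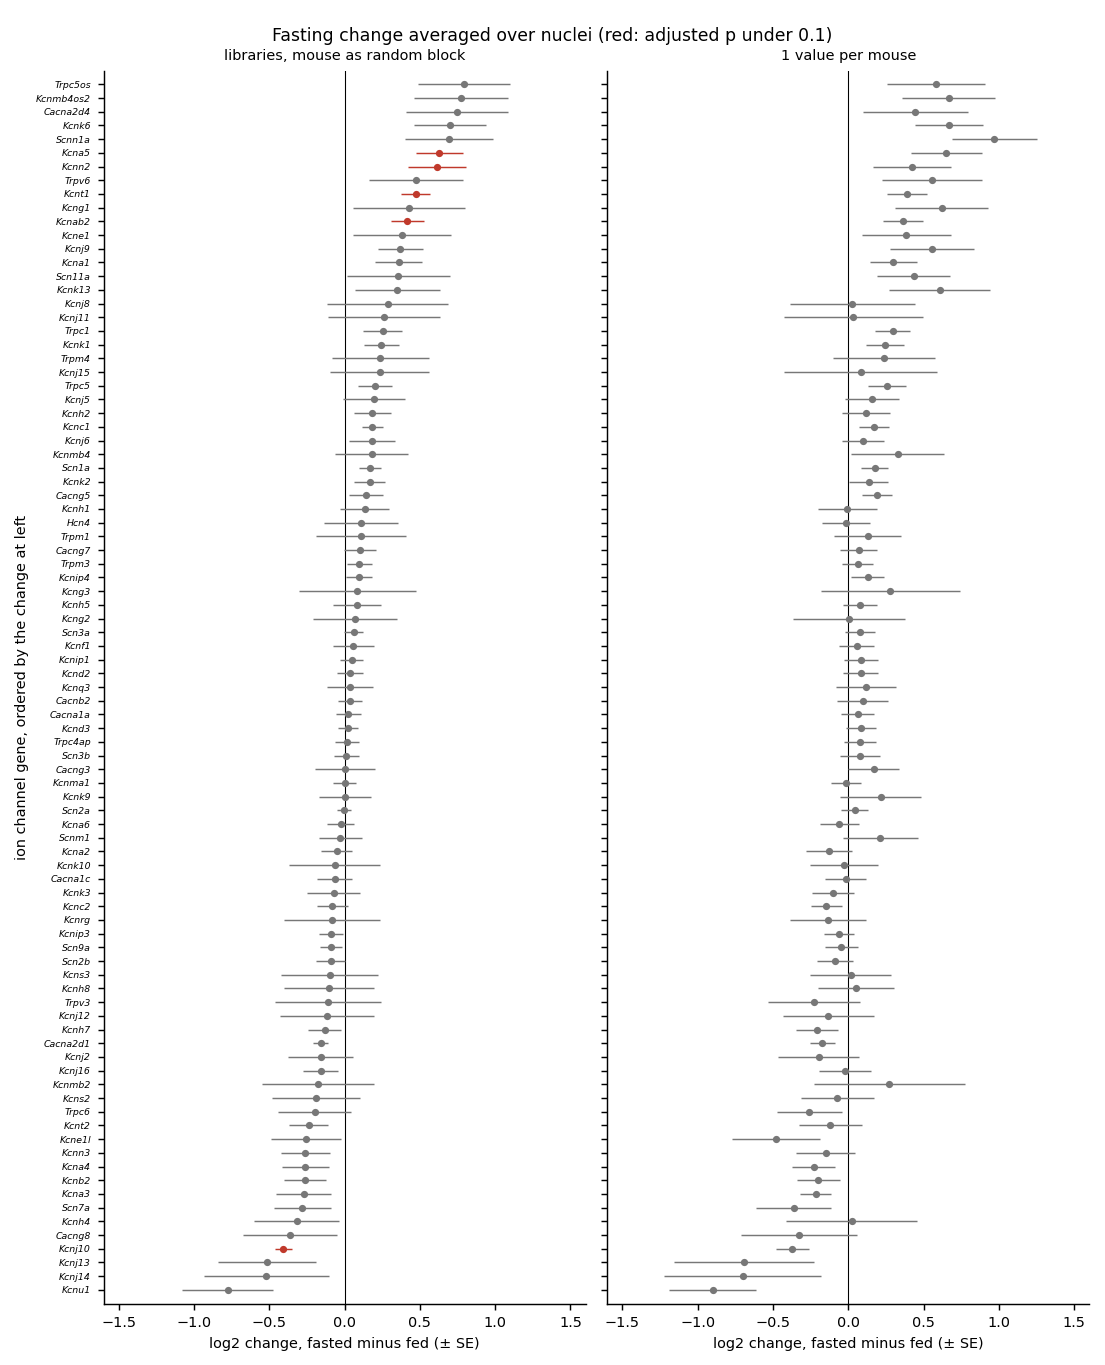
Log2 change with fasting averaged over nuclei (horizontal axis, bars ± SE) of 89 of the 92 members, in the fit over libraries at left and with 1 value per mouse at right, in the order of the left panel, with red for an adjusted p under 0.1. Kcnj10, Kcna5, Kcnn2, Kcnt1 and Kcnab2 are red at left and no gene is red at right.

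Other members came near the top in 1 nucleus without passing the test. Trpc5os in ARC had 3.38, 3.4, 7.24 and 7.60 CPM fasted and 0, 0, 0.456, 0.953 and 1.27 fed, a log2 change of 2.52 ± 0.63 (adjusted p = 0.242) at a level of few reads. Trpc5os passed the filter of 1 CPM through its fasted libraries, so no conclusion is drawn from its change or its lack of overlap. Kcnd2 was the other member without overlap in ARC, where 2.07% of all genes had none. The change of Kcnd2 there was 0.22 ± 0.15 (limma, adjusted p = 0.71). Kcnj8 in PVN had 3.82 to 9.08 CPM fasted and 0 to 5.51 fed. Its change was 2.01 ± 0.57 (limma, adjusted p = 0.23), and 1.2 to 2.72 under the alternatives. Kcnj8 likewise passed the filter of 1 CPM through its fasted libraries, so no conclusion is drawn from its change. The vessel list summed to 154 to 253 CPM in the fasted and 142 to 169 in the fed PVN libraries. Kcna1 had a change of 0.79 ± 0.27 in DMH (adjusted p = 0.695). In VMH, Kcnh7 had one of -0.32 ± 0.11 and Kcnf1 one of -0.95 ± 0.33 (adjusted p = 0.536 and 0.592). Kcna4 was without overlap in PVN, as were 1.26% of all genes, with 20.6 to 26.5 CPM fasted and 28.6 to 56.0 fed. Its change of -0.54 ± 0.22 did not pass (limma, adjusted p = 0.418).

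Whether the response differed between nuclei was tested by the interaction of state and nucleus. No member passed (limma, adjusted p under 0.1), and 0% of all genes did. At an unadjusted p under 0.05 were 5 of 92 members, 5.43% against 5.11% of all genes. Kcnf1, a silent Kv subunit, had the smallest p of the members (adjusted p = 0.562), with a change of -0.95 in VMH, 0.57 in DMH, 0.51 in PVN and 0.19 in ARC. Of 33 channel genes listed for a known part in feeding or in peptide neurons, 19 were measured, and among them Kcnj10 alone passed the averaged fasting test, a call lost with 1 value per mouse (adjusted p = 0.44). Of the 24 channel partner genes tested, 0 passed it (limma). Of all genes, 3.18% passed, so neither count stands far from that share.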

How the data were processed

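Laser-captured RNA was amplified and sequenced as single-end reads with a kit that does not mark strand. The authors' tools named in their processing notes are CASAVA 1.7, TopHat2 2.0.11, Cufflinks 2.2.1, edgeR and limma, with genome build GRCm38; the counting program is not given in the sources used here, and outlier libraries were left out by the authors. The deposited table holds counts-per-million (CPM) per gene, made by the authors. Its columns sum to 554896 to 689010, so part of each library lies in genes the table does not list. A total of 41 columns matched 41 of the 43 labelled samples, and 2 columns whose names fit no sample were not used. Low values were whole multiples of 1 read for 96.1% to 97.6% of values (tolerance 0.02 of a step), which gave depths of 1940000 to 8230000 reads. Not all values came out whole, and no count test was run on reads recovered from them.

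All tests were 2-sided and used limma 3.58.1 (statmod 1.5.0, R 4.3.3) on log2(CPM + 0.5), with genes at 1 CPM or more in as many libraries as the smallest group, the mean-variance trend, Benjamini-Hochberg adjustment over all genes tested and an adjusted p under 0.1. Log2 values are therefore on the log2(CPM + 0.5) scale, which understates changes of low genes. Nuclei, the averaged fasting change and the interaction came from 1 fit of 8 means of nucleus and state plus batch, with the mouse as a random block, since libraries of 1 number come from the same mouse. Fasting within a nucleus was fitted with batch as covariate. The batch is the batch of capture and library preparation, 3 in all, of 10, 15 and 16 libraries. Mice are separate animals, so errors are between animals within a nucleus. The scripts were tested on simulated data; the recovery required of the interaction test was lowered there after it was narrowly missed, and the averaged fasting test was simulated only with changes in 1 nucleus. Figures were drawn with matplotlib 3.10.9.

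Alternatives were a pseudocount of 0.1 or 2, no filter, median-ratio scaling, no block or the mouse as a fixed block, fed libraries only, no batch covariate, library weights, leaving out each mouse or library, and, added after seeing the data, 1 value per mouse. The members, roles, marker, feeding and partner lists were chosen with earlier results of these data known. Named genes are those past a fasting test, otherwise the 3 of smallest p with at least 5 CPM, the 5 highest and 3 lowest of each nucleus, the 8 of highest CPM per kb, and the feeding and partner genes; further members were named after their values were seen. Some members are counted but not reported by name here.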

Additional observations from a re-analysis of the deposited data

Results flagged for a closer look

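Single libraries far from the rest of their group were looked for in 10 genes, those named for fasting. This gave 80 combinations of a gene with a group of nucleus and state, which share libraries. In 11 combinations the gap between an extreme library and its neighbour exceeded the 95% critical value of Dixon's test, where chance gives about 1 in 20, or 4 of 80. In the PVN of fasted mice, mouse Fast-86 had 257.7 CPM of Kcnt1, where the others had 47.0 to 91.0, and 56.15 CPM of Kcnn2, where they had 12.5 to 15.9. The same library had 166.9 CPM of Kcnj10, below the others at 213 to 221. Mouse Fed-308 had 268.7 CPM of Kcnj10 in ARC, below the others at 341 to 371. Mouse Fed-111 had 137.6 CPM of Kcnt1 in VMH, where the others had 76.2 to 93.2. Mouse Fed-92 had 44.96 CPM of Kcnab2 in DMH, where the others had 21.4 to 29.9. Mouse Fed-125 had 86.84 CPM of Kcna1 in VMH, below the others at 126 to 141.

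The remaining cases concern genes of few reads. Kcnj8 was at 9.077 CPM in the PVN of mouse Fast-311 (others 3.82 to 5.31) and at 5.508 CPM in that of mouse Fed-308 (others 0 to 0.763). Trpc5os was at 3.532 CPM in the PVN of mouse Fed-111 (others 0.952 to 1.67) and at 2.072 CPM in the VMH of mouse Fed-125 (others 0.169 to 0.582). What sets these libraries apart was not tested.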

How the results depend on the processing

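The counts of members that differed between nuclei stayed within 1.5 times under each alternative: 48 to 60 for any difference, 34 to 49 for VMH, 27 to 41 for PVN, 25 to 36 for ARC and 18 to 23 for DMH, the lowest with fed libraries only, where fewer libraries were tested. Without the replicate block for the mouse (correlation between libraries of a mouse -0.0032) the counts were 59, 48, 40, 34 and 22 as before and 5 for the averaged fasting change, and with the mouse as a fixed block they were 60, 49, 41, 31 and 21. For fasting in PVN, where no member passed, a pseudocount of 2 gave 1 member, library weights gave 2 and leaving out each library gave 0 to 1; the 1 was Kcnt1 without mouse Fast-305 (adjusted p = 0.0315). For fasting in VMH, leaving out each library gave 0 to 1, the 1 being Kcnj10 without mouse Fast-85 (adjusted p = 0.0865). For the averaged fasting change, where 5 members passed, the count was 1 without the batch covariate (Kcnj10, adjusted p = 0.00672), 0 with 1 value per mouse and 3 to 6 without single mice, with 3 without mouse Fed-111, Fed-308 or Fast-86. The causes were not tested. No value reversed. Median-ratio scaling moved libraries by -0.0359 to 0.0281 on the log2 scale. Among values of single genes, 14 lost and 2 gained significance under an alternative, as did 19 and 10 on leaving out a mouse or library; Kcnj12 in DMH was lost without mouse Fed-313 (-0.85, adjusted p = 0.119). A gene near 1 CPM rests on 2 to 8 reads, which limits what could be seen of low channels.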
